A study of Homo sapiens with 6 samples.

Results

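The cadherins and protocadherins are calcium-dependent adhesion proteins of the cell surface, and their genes were followed here in the human lung cancer line H1299 after treatment with AVJ16. The members are all rows of the deposited gene table whose symbol is CDH followed by a number, or PCDH followed by optional letters and a number. The rule took 69 of the 22004 genes and used no measured value. Of these, 12 were classical cadherins, 3 were other CDH genes, 43 were clustered protocadherins and 11 were non-clustered protocadherins. A further 20 symbols of this form are annotated as coding genes in GENCODE 44 and were not analysed here.

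AVJ16, a small molecule, inhibits IGF2BP1 according to the study. IGF2BP1 binds mRNAs in the embryo, is mostly silent after birth and returns in many tumours. Wild-type H1299 cells, an established line labelled as epithelial-like and grown in RPMI with fetal calf serum and ciprofloxacin, received 1.5 µM AVJ16 or the solvent DMSO for 48 h, and poly(A) RNA was sequenced from 3 libraries per group. The DMSO libraries are called A, B and C and the AVJ16 libraries D, E and F. The comparison addressed which steady-state mRNA levels differ between treated and control cells. The methods speak of triplicates for RNA-seq and of biological repeats for the experiments in general, while the labels do not tie each library to a culture of its own. If the libraries shared a culture, the p-values would measure only technical spread.

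The libraries held 19353830 to 30253721 counts. Library D differed from E and F: mitochondrially encoded genes took 11.9% of its counts, against 5.13% to 6.66% in the other 5. The label of the line was checked on its markers. In CPM, counts relative to library size after TMM scaling, KRT8 and KRT18, which encode keratins of simple epithelia, had at least 289.5 and 406 CPM in every library. EPCAM and KRT19, both epithelial genes, did not exceed 0.594 and 0.499 CPM, and VIM, a mesenchymal filament gene, had at least 5362 CPM. VIM rose from 5699 ± 458 to 7489 ± 72.1 CPM (SD, n = 3), by 0.39 on the log2 scale (adjusted p 0.0449), as the one called gene of the 5 tested on this marker list. The 4 not called had log2 fold changes of 0.33 for KRT8 (adjusted p 0.113), 0.15 for KRT18, 0.15 for EPCAM and −0.11 for IGF2BP1. Of 7 markers of immune, endothelial and fibroblast cells 6 were in the table, and they summed to 6.10 to 7.03 CPM in DMSO and 4.52 to 7.27 CPM in AVJ16. The 3 tested included COL1A1, a fibroblast collagen gene that was lower in AVJ16, with a log2 fold change of −0.81 (adjusted p 0.0293). The other 2, CD68 and DCN, were not called and lay above 0. Their log2 fold changes were 1.27 (adjusted p 0.0719) and 0.12 (adjusted p 0.861). CDH5 and LUM were at 0 in at least 1 library. The part of these markers in the results was not tested.

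In the classical cadherins, the extracellular repeats bind the same cadherin on the next cell and the tail binds beta-catenin and p120-catenin, which tie the complex to actin. Protocadherins have further extracellular repeats and different tails, which do not bind beta-catenin. The clustered protocadherins lie in 3 neighbouring arrays, alpha, beta and gamma, on chromosome 5. In neurons each cell switches on its own small set of them and so gains a surface identity. The delta protocadherins, most of the non-clustered group, guide cell sorting, axon growth and migration, and several are silenced in carcinomas. Most are best known from nervous tissue, so their presence in a lung line says only that the genes are transcribed there. In bulk RNA, fewer cells that express a gene and less RNA per cell cannot be told apart.

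In the alpha and gamma arrays each gene has its own promoter and its own large first exon, which is spliced to constant exons shared by the whole array. Each beta gene is a single-exon unit. The promoters carry a conserved element with the core CGCT, known as a place where the architectural protein CTCF binds and brings the promoter to distant enhancers. Each promoter drives its own first exon, so reads in a first exon come from RNA started at that promoter. Such reads measure steady-state RNA, and promoter activity was not measured. The windows of 40 bases shown here come from clustered members with 1 such core, some of which recur in the results. They were taken from the RefSeq promoters of build GRCh38.p14 on the plus strand. Capitals mark CGCT.
PCDHA10, chr5:140855833-140855872: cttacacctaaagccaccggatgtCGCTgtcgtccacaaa
PCDHA11, chr5:140868875-140868914: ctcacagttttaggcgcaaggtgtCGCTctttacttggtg
PCDHB5, chr5:141135171-141135210: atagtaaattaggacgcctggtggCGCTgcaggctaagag
PCDHB10, chr5:141192291-141192330: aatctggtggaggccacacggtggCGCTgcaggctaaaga
PCDHGA3, chr5:141343759-141343798: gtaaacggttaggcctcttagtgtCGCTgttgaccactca
PCDHGA6, chr5:141373827-141373866: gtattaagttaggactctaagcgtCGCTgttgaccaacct
PCDHGA10, chr5:141412923-141412962: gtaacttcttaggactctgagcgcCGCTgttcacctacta
PCDHGA11, chr5:141420964-141421003: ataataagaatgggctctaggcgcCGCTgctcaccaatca
RefSeq promoters, 250 bases before to 50 after the start, were found for 56 of the 69 members. None was found for CDH1, CDH3, CDH5, CDH6, CDH11, CDH13, CDH15, CDH24, PCDH10, PCDHB6, PCDHB11, PCDHGA12 and PCDHGC5.

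CGCT was searched on both strands. It stood on the strand of the gene in 39 of 39 clustered members, in 13 of 17 other members and in 54.3% of all 35116 RefSeq promoters, so the core alone is common. On either strand it was present in 70.0% of all promoters. The bases before it differed between the arrays. GGTGGCGCT, which contains the core, was present in 11 of 11 beta members, in no alpha or gamma member and in 0.302% of all promoters. GATGTCGCT was present in 5 of 8 alpha members, in no beta or gamma member and in 0.074% of all promoters. These longer strings were chosen after the windows had been read. Members were counted by gene, over any listed promoter, while the shares of all promoters count each promoter singly. These shares are therefore not like for like. In the 26 clustered members with exactly 1 core, it lay 11 to 199 bases upstream of the start, with a median of 51.5. A match of letters is a description of the promoter and not a bound site.

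Levels can be set against each other only per length, so CPM was divided by the kilobases of exon that belong to 1 gene alone. On this scale the highest member in DMSO was CDH2, at 5.70 CPM per kb. It was followed by PCDHGA3 at 4.40, PCDHB6 at 3.43, CDH24 at 3.22 and PCDH7 at 1.93 CPM per kb. Over all exon bases, shared ones included, PCDHGA3 had 2.44 CPM per kb, below PCDHB6 and CDH24, so its place in this order depends on the length used. Classical, clustered and non-clustered genes were thus all among the leading levels. CDH2 ranged from 4.12 to 6.18 CPM per kb over the 6 libraries and PCDHGA3 from 2.13 to 4.51, so these neighbours overlapped. In AVJ16 the level of PCDH7 was 0.809 CPM per kb and that of CDH24 was 4.41.

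Most members were scarce. The sum of counts over the 6 libraries was under 100 for 47 of the 69 members and reached 6694 for CDH2. The test used genes that reached about 0.413 CPM in at least 3 libraries, which kept 32 members and left 37, with sums of 10 to 65 counts, untested. Of the 32, 20 reached that level in all 6 libraries and 10 in all 3 DMSO libraries but fewer than 3 AVJ16 libraries, while 0 did the reverse. For those 10 the filter favoured a lower AVJ16 level, so the counts over the 32 are given as a description only.

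After treatment 10 members were lower and 0 were higher at an adjusted p of 0.05 (edgeR quasi-likelihood test, Benjamini-Hochberg over all 16330 genes tested). Of all genes tested, 8.77% were lower and 5.87% were higher. At an unadjusted p under 0.05, 15 of the 32 tested members were lower and 1 was higher. Members kept only through DMSO are among these 15, and the share of all genes at this threshold is not given here. DESeq2, which tested all 69 members, called 8 lower, beside 1354 of all 22004 genes. The median log2 fold change was −0.52 over the 32 tested members and −0.01 over all genes tested. Of the 10 lower members, 6 reached the level of the filter in all 6 libraries. The other 4 reached it in all 3 DMSO libraries but in fewer than 3 AVJ16 libraries. With no filter, 10 of all 69 members were lower, beside 6.32% of all genes, and the median over the 69 members was −0.35. Split by the mean over all 6 libraries instead, 6 of the 19 members with at least 1 CPM were lower, beside 9.09% of genes at that level. The groups did not overlap, with AVJ16 lower, for 17 of the 32 tested members and for 20.6% of all genes tested.

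**Figure D1:**
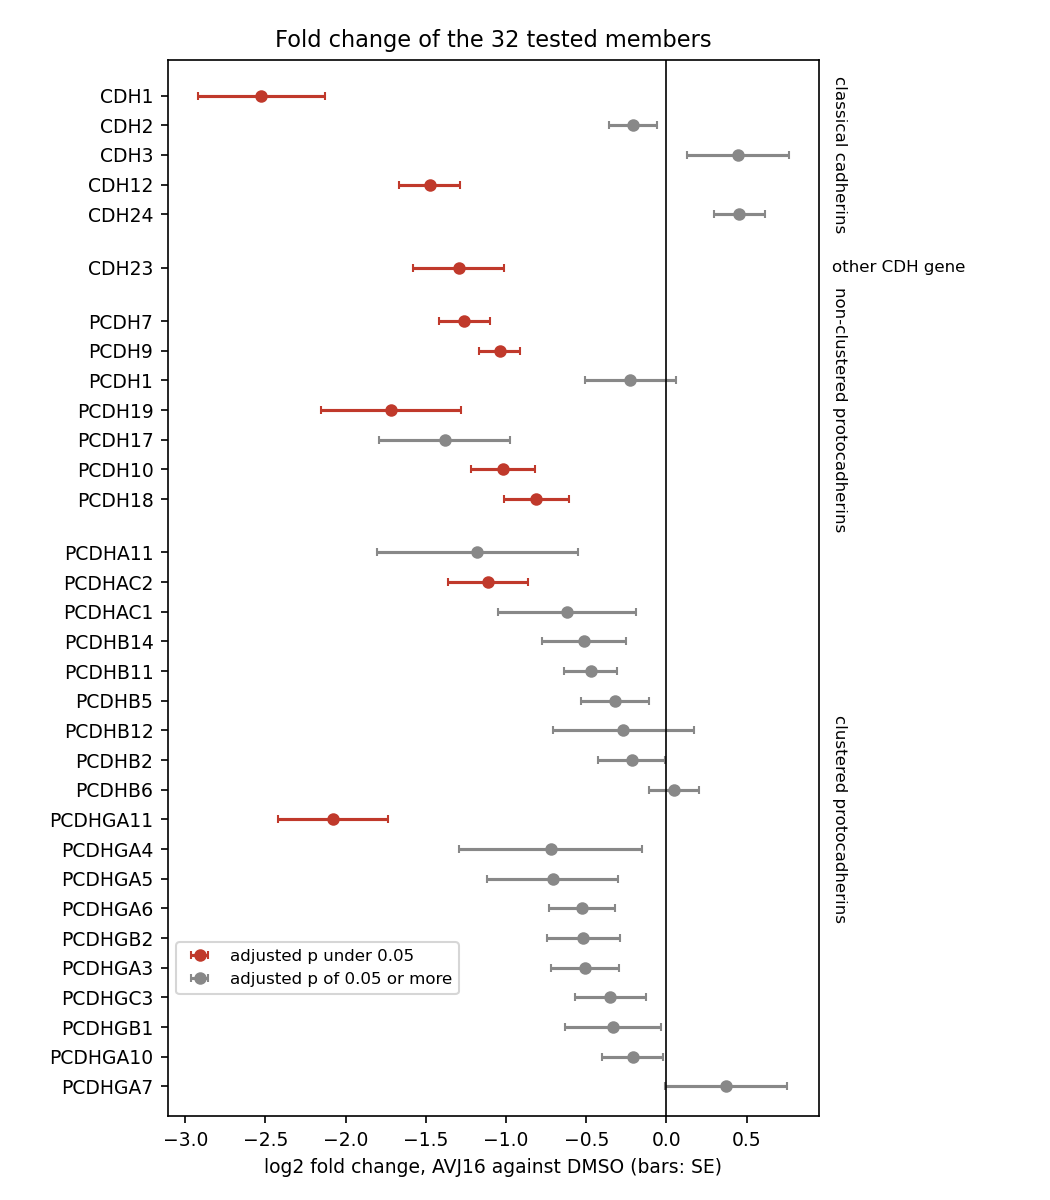
Log2 fold change of AVJ16 against DMSO (x axis, bars ± 1 SE) for the 32 tested members (y axis, grouped by class), with members at an adjusted p under 0.05 in red. The red points are CDH1, CDH12, CDH23, 5 non-clustered protocadherins, PCDHAC2 and PCDHGA11, and all lie below 0, whereas 4 grey points lie above 0.

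The classes did not move alike in their values. Summed over all members of a class, the non-clustered protocadherins stood at 60.9, 62.1 and 64.7 CPM in A, B and C and at 35.5, 27.2 and 27.0 CPM in D, E and F. The clustered protocadherins stood at 58.3, 63.2 and 62.1 CPM in DMSO and at 59.5, 38.8 and 47.3 CPM in AVJ16. The classical cadherins stood at 69.0, 68.0 and 66.9 CPM in DMSO and at 70.1, 56.0 and 61.1 CPM in AVJ16. The 3 sums were thus close to each other in DMSO, and in AVJ16 only the non-clustered one of these 3 lay below its DMSO range in all 3 libraries, library D included. The ratio of the AVJ16 mean to the DMSO mean was 0.478 for the non-clustered, 0.793 for the clustered and 0.918 for the classical members.

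Within each library, the non-clustered sum divided by the clustered sum was 1.04, 0.983 and 1.04 in DMSO and 0.596, 0.700 and 0.570 in AVJ16. This ratio does not depend on how libraries are scaled, and its groups did not overlap. No p-value is given for these sums, since the classes were formed with results of these data known. PCDH7 and PCDH9 made up 39.9% and 38.7% of the non-clustered sum in DMSO. CDH2 made up 72.0% of the classical sum, and among clustered genes PCDHGA3 had the highest share, 19.4%.

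**Figure D2:**
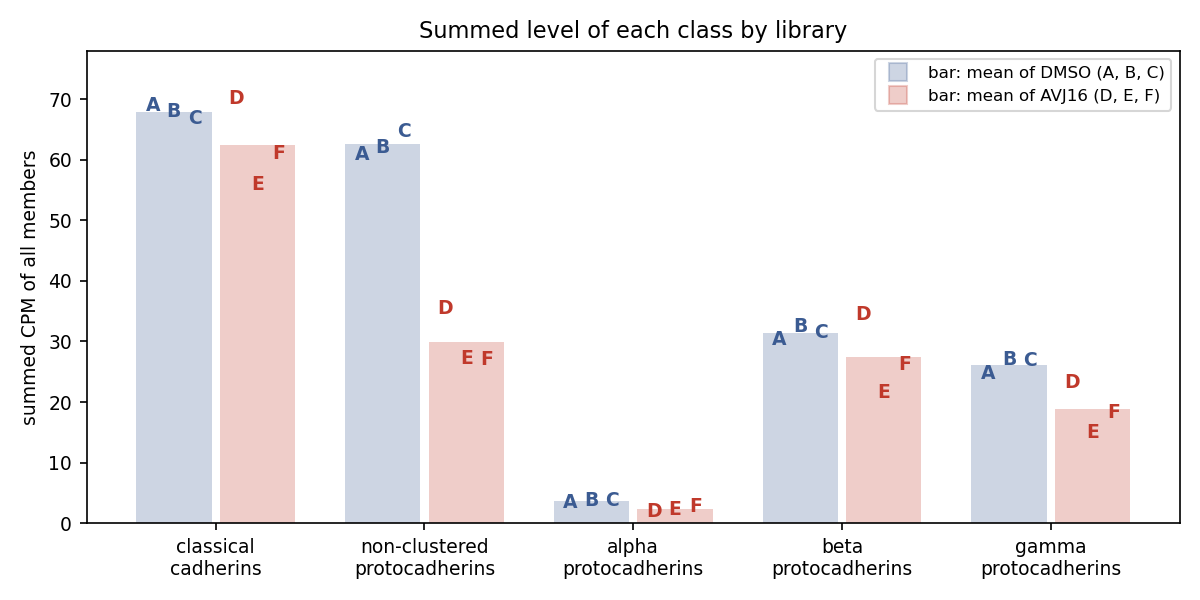
Summed TMM-scaled CPM (y axis) of all members of each class (x axis) in each library, lettered A to C for DMSO and D to F for AVJ16, with bars at the group means. The non-clustered letters D, E and F lie at 27.0 to 35.5 CPM, below all DMSO letters. The alpha and gamma letters D, E and F also lie below all their DMSO letters. In the classical and beta sums D lies above the DMSO letters.

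Among the classical cadherins, 2 of the 5 tested members were lower, CDH1 and CDH12. CDH1 encodes E-cadherin, the adhesion protein of epithelial junctions, and was scarce in these cells already without treatment. It reached the level of the filter in 3 DMSO libraries and 1 AVJ16 library. It had 28, 48 and 30 counts in A, B and C and 4, 2 and 13 counts in D, E and F. Every AVJ16 library lay below every DMSO library, and E was the lowest. The means were 1.45 ± 0.157 CPM in DMSO and 0.234 ± 0.182 CPM in AVJ16 (SD, n = 3). CDH1 was 5.76-fold lower, with a log2 fold change of −2.53 (SE 0.40) and an adjusted p of 0.00478. Without library F the log2 fold change was −3.41 and without E it was −2.14, and the call held in each of the 13 other fits. Of its exon bases, 5.71% overlap a gene on the opposite strand, and how strand was set in the counting was not given in the sources used here.

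CDH12 encodes N-cadherin 2, a type II cadherin of the brain. It stood at 3.99, 4.26 and 3.86 CPM in DMSO and at 1.69, 1.12 and 1.54 CPM in AVJ16. The DMSO libraries agreed closely and all 3 AVJ16 libraries were below them. It was 2.78-fold lower, with a log2 fold change of −1.48 (SE 0.19) and an adjusted p of 0.00226, and the call held in all 13 other fits.

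CDH2 encodes N-cadherin, the cadherin of mesenchymal and neural cells and the main classical cadherin here. It stood at 49.2, 47.6 and 49.9 CPM in DMSO and at 53.0, 35.4 and 38.7 CPM in AVJ16. Library D was the highest of all 6 while E and F were the lowest, so the groups overlapped. CDH2 had a log2 fold change of −0.21, with a 95% interval of −0.55 to 0.13 and an adjusted p of 0.391. Without library D it was −0.40, with an adjusted p of 0.00206, so that this library decided the call.

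CDH24, a type II cadherin reported to bind catenins, was the one tested member whose AVJ16 libraries all lay above its DMSO libraries. It stood at 12.9, 13.2 and 10.0 CPM in DMSO and at 13.7, 17.4 and 18.6 CPM in AVJ16. The gap between B and D was small. CDH24 had a log2 fold change of 0.46, with an interval of 0.09 to 0.82 and an adjusted p of 0.0904. Without library D it was 0.57, with an adjusted p of 0.00172. CDH3, which encodes P-cadherin, had a log2 fold change of 0.45 with an interval of −0.27 to 1.17. The other 7 classical members were not tested, and over all 12 with no filter the median log2 fold change was 0.03.

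Among the other CDH genes CDH23 was tested, having reached the level of the filter in 3 DMSO libraries and 1 AVJ16 library. It encodes the long cadherin that forms, with the protocadherin PCDH15, the tip links of inner ear hair cells. It had 23, 31 and 17 counts in DMSO and 7, 12 and 11 in AVJ16, with no overlap between the groups. CDH23 was 2.45-fold lower, with a log2 fold change of −1.29 (SE 0.28) and an adjusted p of 0.0176. The call was lost without A, B or F and with DESeq2, with adjusted p up to 0.0824 over all fits. Overlap with exons on the opposite strand was 18.9% of its exon bases. PCDH15, its partner, had 19 counts in all and was not tested.

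The non-clustered protocadherins held 5 of the 10 lower members, from 7 tested and 11 in all, beside 8.77% of all genes tested. Of these 5, PCDH19 was tested through its DMSO libraries alone. PCDH7 and PCDH9 belong to the delta-1 branch, whose tails carry a motif that binds protein phosphatase 1. They were the most abundant protocadherins outside the arrays and had low spread, and their promoters are printed for that reason, 300 bases each on the strand of the gene, from RefSeq build GRCh38.p14 with CGCT in capitals.
PCDH7, chr4:30720119-30720418: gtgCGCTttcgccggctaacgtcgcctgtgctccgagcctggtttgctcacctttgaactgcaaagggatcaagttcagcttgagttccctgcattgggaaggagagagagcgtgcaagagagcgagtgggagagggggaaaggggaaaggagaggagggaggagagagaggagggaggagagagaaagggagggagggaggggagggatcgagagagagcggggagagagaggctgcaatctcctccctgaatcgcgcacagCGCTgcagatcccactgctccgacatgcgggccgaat
PCDH9, chr13:67230287-67230586: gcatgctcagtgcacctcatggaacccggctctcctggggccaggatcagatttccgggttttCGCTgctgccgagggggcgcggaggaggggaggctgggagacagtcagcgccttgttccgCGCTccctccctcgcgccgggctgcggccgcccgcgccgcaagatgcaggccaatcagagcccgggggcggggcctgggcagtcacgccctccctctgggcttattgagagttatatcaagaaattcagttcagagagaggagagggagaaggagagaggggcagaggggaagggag
Both promoters were rich in G and C, at 60.3% and 65.7% of bases, and each held 2 copies of the common CGCT core.

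PCDH7 stood at 23.9, 25.0 and 25.9 CPM in DMSO and at 13.1, 9.47 and 8.78 CPM in AVJ16. Library D was the highest of the AVJ16 libraries and still lay well under every DMSO library. PCDH7 was 2.40-fold lower, with a log2 fold change of −1.26 (SE 0.16) and an adjusted p of 0.0021. Its gene spans chr4:30720369-31146805, and 12.4% of its exon bases overlap a gene on the other strand.

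PCDH9 stood at 24.03, 22.4 and 26.1 CPM in DMSO and at 13.2, 10.7 and 11.4 CPM in AVJ16. Here too D was the highest AVJ16 library and the groups were far apart. The log2 fold change was −1.04 (SE 0.13), a 2.05-fold lower level, with an adjusted p of 0.0020. The calls of PCDH7 and PCDH9 held in all 13 other fits. PCDH1, the third tested delta-1 gene and the one known from airway epithelium, stood at 1.18 ± 0.402 CPM in DMSO and 1.01 ± 0.129 CPM in AVJ16 (SD, n = 3). Its log2 fold change was −0.22 with an interval of −0.87 to 0.42.

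Several delta-2 protocadherins bind the WAVE complex, which drives actin branching, through a motif in their tails. Of their 5 members 4 were tested. PCDH10, an adhesion gene often methylated in tumours, stood at 7.25, 7.95 and 6.49 CPM in DMSO and at 4.80, 3.08 and 2.95 CPM in AVJ16. The groups did not overlap, and E and F lay close together below D. It was 2.03-fold lower, with a log2 fold change of −1.02 (SE 0.20) and an adjusted p of 0.0122. The call was lost without A, B or F.

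PCDH18 stood at 3.35, 3.69 and 2.73 CPM in DMSO and at 2.28, 1.54 and 1.81 CPM in AVJ16. C and D came nearest to each other and did not cross. PCDH18 had a log2 fold change of −0.81 (SE 0.20) and an adjusted p of 0.0303. Its call was lost when any library other than D was left out, with an adjusted p of up to 0.122.

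PCDH19, the X-linked gene whose loss causes an epilepsy that mainly affects girls, had 10, 21 and 14 counts in DMSO and 7, 2 and 5 in AVJ16. The counts were low throughout, and A and D came nearest to each other without overlap. PCDH19 had a log2 fold change of −1.72 (SE 0.44) and an adjusted p of 0.0321, and the call was likewise lost without any library other than D and with DESeq2. PCDH17, the remaining tested delta-2 gene, gave −1.38 with an interval of −2.30 to −0.47 and an adjusted p of 0.0516. PCDH17 and PCDH19 reached the level of the filter in the DMSO libraries alone, so a lower AVJ16 level was built into their being tested, and no summary over the 4 tested delta-2 genes is drawn.

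**Figure D3:**
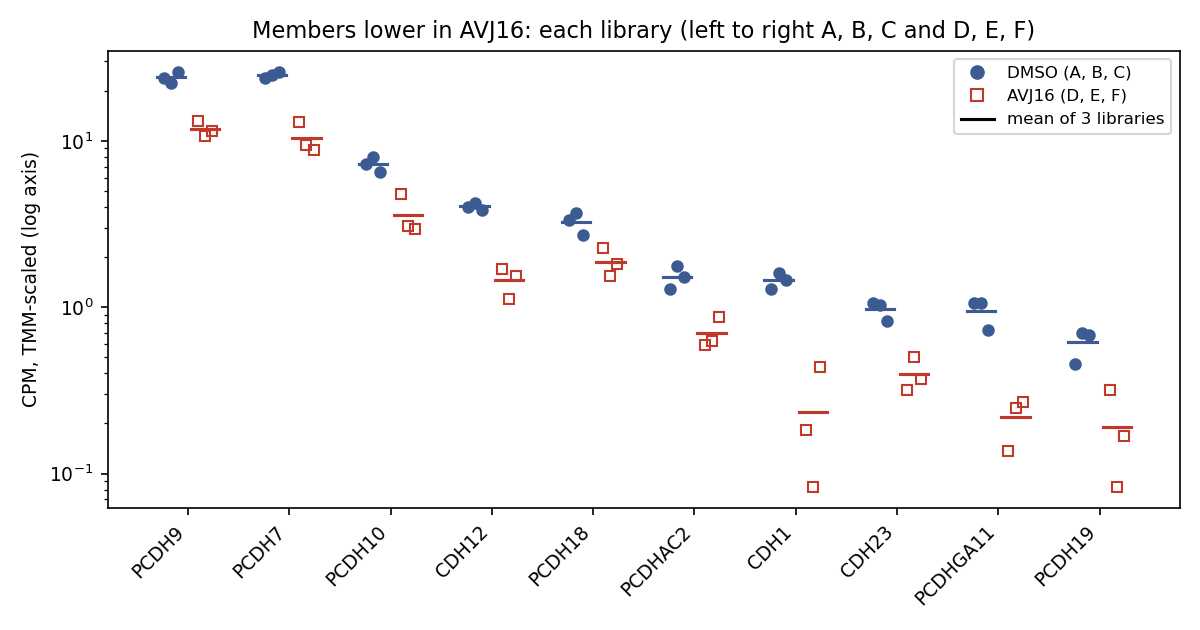
TMM-scaled CPM (y axis, log scale) of the 10 members lower in AVJ16 (x axis, from high to low mean), with filled circles for DMSO libraries, open squares for AVJ16 libraries and lines at the means. In each of the 10 members the 3 squares lie below the 3 circles, with PCDH9 and PCDH7 near 24 and 25 CPM in DMSO and PCDH19 below 1 CPM.

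The clustered protocadherins lie between chr5:140807037 and 141512977, and 2 of the 19 tested members were lower, PCDHGA11 and PCDHAC2. That is 10.5% of those tested, near the 8.77% of all genes. Annotated gamma genes share 27.5% to 64.4% of their exon bases with other gamma genes and alpha genes share 21.4% to 53.3% with other alpha genes, because each model includes the constant exons. Reads from constant exons cannot be given to 1 gene, so the values of alpha and gamma members come mainly from their first exons if such reads were dropped. The sources used here do not give this, and their levels are uncertain to that extent. Beta genes shared at most 9.54%.

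PCDHGA11 reached the level of the filter in the DMSO libraries alone, so a lower AVJ16 level was built into its being tested. It had 23, 32 and 15 counts in DMSO and 3, 6 and 8 in AVJ16. All AVJ16 counts were below all DMSO counts. It was 4.23-fold lower, with a log2 fold change of −2.08 (SE 0.34) and an adjusted p of 0.00581. The call held in all 12 other fits that tested it. Among these was the fit with no filter, at an adjusted p of 0.00576, while a minimum of 1 CPM left PCDHGA11 untested. PCDHGA10, whose promoter window is printed above, lies nearby, with the untested PCDHGB7 between the 2 genes. For PCDHGA10 the log2 fold change was −0.21 with an interval of −0.64 to 0.22. The difference between PCDHGA10 and PCDHGA11 was not tested.

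PCDHAC2 is the last gene of the alpha array and belongs to the C type, which in neurons is expressed in most cells rather than chosen at random. It is known to lack the typical promoter element, and its promoter from RefSeq build GRCh38.p14 is printed to set beside the windows above.
PCDHAC2, chr5:140966226-140966525: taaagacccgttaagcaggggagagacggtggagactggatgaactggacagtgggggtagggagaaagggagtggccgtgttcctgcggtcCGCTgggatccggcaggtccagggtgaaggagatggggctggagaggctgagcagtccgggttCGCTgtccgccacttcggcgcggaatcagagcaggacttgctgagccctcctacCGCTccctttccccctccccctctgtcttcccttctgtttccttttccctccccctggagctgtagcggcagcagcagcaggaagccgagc
The capitals again mark CGCT, which occurs 3 times, never within GATGTCGCT. PCDHAC2 stood at 1.28, 1.76 and 1.51 CPM in DMSO and at 0.594, 0.623 and 0.871 CPM in AVJ16. The groups did not overlap. Its log2 fold change was −1.11 (SE 0.25) and the adjusted p 0.0199, and the call was lost without B, C or E.

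The most abundant clustered genes did not pass the test. PCDHGA3 stood at 11.5, 11.98 and 12.2 CPM in DMSO and at 11.2, 5.73 and 8.14 CPM in AVJ16. Library D lay just under the DMSO libraries while E was the lowest of the 6. The log2 fold change was −0.51, with an interval of −0.99 to −0.03 and an adjusted p of 0.143, and without library D it was −0.76 with an adjusted p of 6.4e-04.

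PCDHB6 stood at 11.8, 10.7 and 10.7 CPM in DMSO and at 13.8, 9.35 and 11.2 CPM in AVJ16. D was the highest and E the lowest of the 6. The log2 fold change was 0.05 with an interval of −0.31 to 0.40, and its sign turned without library D, at −0.10, with scaling to library size alone, at −0.07, and with voom sample weights, at −0.10.

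PCDHB5 had a log2 fold change of −0.32 with an interval of −0.80 to 0.16, and PCDHB2 of −0.22 with an interval of −0.69 to 0.26. For these genes 14.7% and 43.9% of the exon bases overlap annotation on the opposite strand. No beta member was called, and their median log2 fold change was −0.29. The median was −0.51 over the tested gamma genes and −1.11 over the 3 alpha genes tested. Both sets include genes that reached the filter in all 3 DMSO libraries but in fewer AVJ16 libraries, so these medians are descriptions only. With no filter the median was −0.51 over all 22 gamma members and −0.40 over all 8 alpha members. Over all 43 clustered members with no filter the median was −0.35, and 31 lay below 0. Along the arrays, levels per unshared kilobase differed widely between neighbours, and the genes with high levels in DMSO were also high in AVJ16, as the plot in genome order shows.

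**Figure D4:**
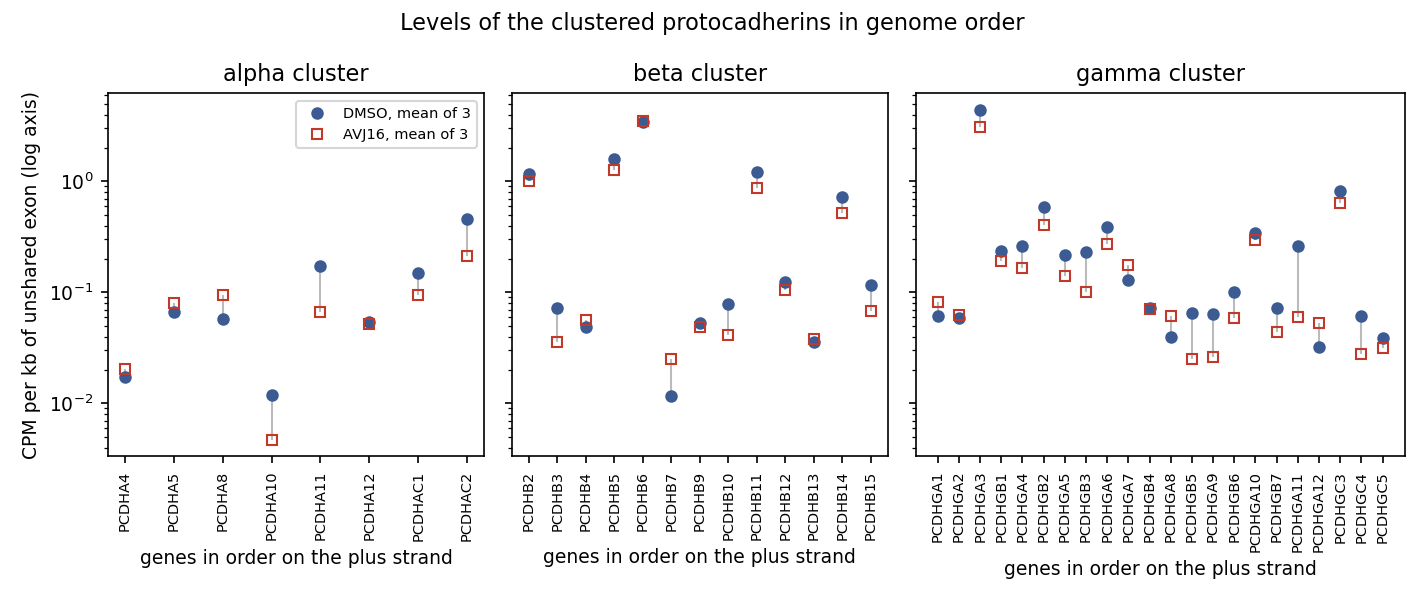
CPM per kb of exon that belongs to 1 gene (y axis, log scale) of the 43 clustered protocadherins in genome order (x axis), filled circles for the DMSO mean and open squares for the AVJ16 mean of 3 libraries. PCDHGA3 at 4.40 and PCDHB6 at 3.43 CPM per kb in DMSO stand above the rest, and the longest gap between circle and square among the tested genes is at PCDHGA11.

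The count of calls in the clusters depended on library D. Of all 8277 genes tested with a log2 fold change below 0, D was the highest AVJ16 library in 43.9% and at or above the lowest DMSO library in 31.5%. Of the 17 tested clustered members with a log2 fold change below 0, D was the highest AVJ16 library in 12 and at or above the lowest DMSO library in 7. Of the 7 such non-clustered members, D was the highest AVJ16 library in 6 and reached the DMSO range in 1. Without D, 36 members were tested. Of these, 19 were lower and 1, CDH24, was higher. Among all 16785 genes tested without D, 19.6% were lower and 2958 were higher. The 19 include all 10 named above and 9 further ones: CDH2, PCDH17, PCDHB5, PCDHB11, PCDHB14, PCDHGA3, PCDHGA4, PCDHGA5 and PCDHGA6. Their log2 fold changes without D ran from −0.40 for CDH2 to −1.77 for PCDH17. Clustered members called lower rose from 2 to 9 and non-clustered ones from 5 to 6. The share of all genes called lower rose from 8.77% to 19.6% in the same step. Leaving out A, B or F instead left 6, 5 and 6 lower members, beside 593, 661 and 527 lower genes in all. Without C or E there were 7 lower members each, beside 621 and 982 lower genes in all. The part of the mitochondrial share of D in these values was not tested.

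**Figure D5:**
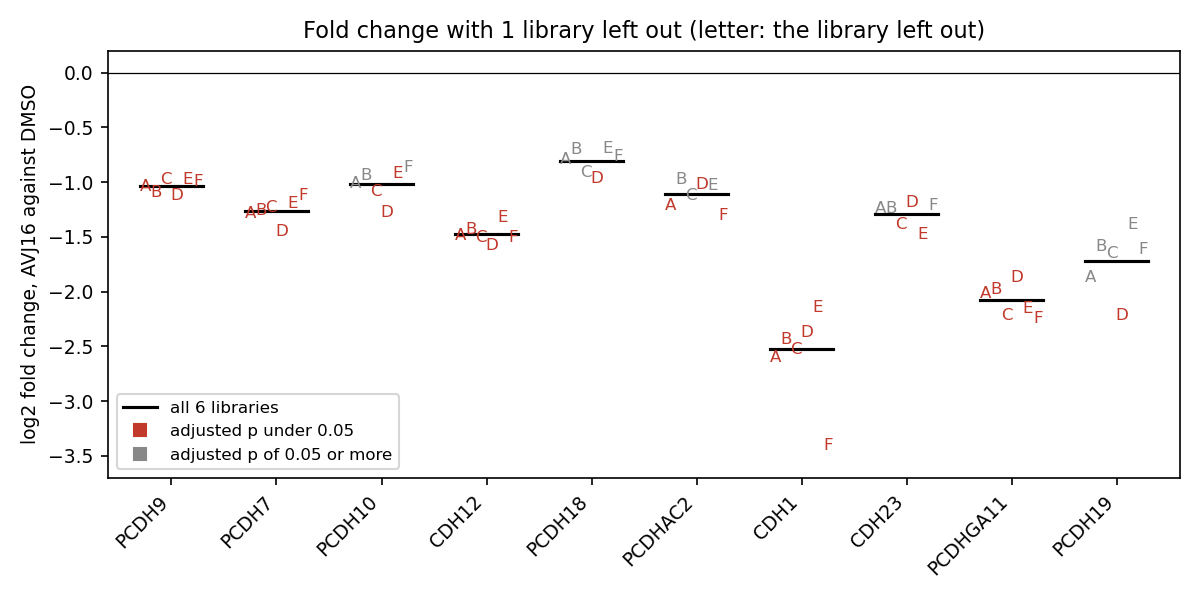
Log2 fold change of AVJ16 against DMSO (y axis) of the 10 lower members (x axis) with all 6 libraries (line) and with 1 library left out (its letter), red where the adjusted p stayed under 0.05 and grey where it did not. All letters lie below 0, CDH1, CDH12, PCDH7, PCDH9 and PCDHGA11 are red throughout, and PCDH18 and PCDH19 are red only without D.

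Genes that work with the members were taken from lists by function. Of 16 tested catenins and junction adaptors, 4 were lower and 2 were higher, with a median log2 fold change of −0.03. CTNNB1, which encodes beta-catenin, stood at 344 ± 11.7 CPM in DMSO and 229 ± 21.2 CPM in AVJ16 (SD, n = 3). Its log2 fold change was −0.58 (adjusted p 0.00671). CTNNA2, the neural alpha-catenin, was lower at −1.26 (adjusted p 0.00671). CTNNAL1, a relative of the alpha-catenins, was higher at 0.59 (adjusted p 0.00428), as was LIMA1, which links the cadherin complex to actin, at 0.60 (adjusted p 0.00638). The called members of this list thus went in both directions.

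Of 13 tested genes in the rest of the cadherin superfamily, 5 were lower and 0 were higher, with a median of −0.45. CELSR2, a seven-pass cadherin of planar polarity, was lower at −0.97 (adjusted p 0.00214). FAT3, a giant atypical cadherin, was lower at −1.54 (adjusted p 0.00829), DCHS2 at −1.28 (adjusted p 0.0181) and DCHS1 at −0.72 (adjusted p 0.0201), which encode the Dachsous ligands of the FAT proteins. DCHS2 had a mean of 1.07 CPM in DMSO and 0.436 CPM in AVJ16. Its lowest AVJ16 library, at 0.291 CPM, lay under the filter level of about 0.413 CPM. DCHS2 was thus tested through its DMSO libraries, which favoured a lower AVJ16 level. Of 6 tested desmosomal genes, DSC3, a desmosomal cadherin, was lower at −0.79 (adjusted p 0.0494).

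Of the 9 tested repressors that can silence E-cadherin, 0 were lower and 1 was higher. TWIST1, one of them, rose by 0.46 on the log2 scale (adjusted p 0.0307). Among the 8 not called, log2 fold changes ran from −0.50 for FOXC2 to 0.82 for SNAI1, which stood at 0.675 ± 0.0293 CPM in DMSO and 1.19 ± 0.379 CPM in AVJ16 (SD, n = 3; adjusted p 0.0904). For TWIST2 it was 0.46, at an adjusted p of 0.245. SNAI2, ZEB1 and ZEB2 stood at 31.6, 47.4 and 28.0 CPM in AVJ16 against 33.4, 38.2 and 28.8 CPM in DMSO. For these 3 the differences were within the spread of the AVJ16 libraries, whose SDs were 8.56, 14.7 and 8.95 CPM. Of 20 tested regulators of the clustered arrays, 2 were lower: STAG1, a cohesin subunit, at −0.66 (adjusted p 0.0206), and DNMT3B, a DNA methyltransferase that marks these promoters in mouse, at −0.62 (adjusted p 0.00786).

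Of 14 tested proteases that cut or process cadherins, 3 were lower. PCSK6, a proprotein convertase, went from 24.5 ± 2.34 CPM to 10.8 ± 1.32 CPM (SD, n = 3). It was lower by a log2 fold change of −1.19 (adjusted p 0.00165). PSEN2, a catalytic subunit of gamma-secretase, was lower at −0.66 (adjusted p 0.00964), and PCSK5 at −0.57 (adjusted p 0.0421). Of 15 tested genes of the WAVE complex and of kinases that act with protocadherins, CYFIP2, a WAVE subunit, was lower at −0.46 (adjusted p 0.0253) and TAOK2, a kinase tied to cadherin uptake, at −0.37 (adjusted p 0.0496). In each of these lists, the share called lower is to be read beside the 8.77% of all genes.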

How the data were processed

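The authors deposited a table of counts per gene, used here as raw counts; its normalised columns were not used. Per the submitters' notes and the methods, reads (single-end, 75 bases, stranded KAPA kit) went through cutadapt 2.10 for trimming, TopHat2 2.1.1 for alignment on GRCh38, HTSeq 2.01 for counting on Ensembl 99 and DESeq2 1.36.0 for normalisation. The strand setting and overlap mode are not given in the sources used here. Genes with fewer than 10 counts in sum were absent, and 1 empty line was dropped. Columns A to C were taken as DMSO and D to F as AVJ16 from the study's heat map.

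The test was that of edgeR 4.0.16, with limma 3.58.1 in R 4.3.3: filterByExpr (minimum count 10, total 15), TMM scaling, robust two-sided quasi-likelihood F test, Benjamini-Hochberg adjustment over all genes tested, threshold 0.05. The SE was the absolute log2 fold change over the square root of F. The steps were tested on simulated data. Exon lengths came from GENCODE 44. Alternatives were other scalings (RLE, library size, upper quartile), no filter, 1 CPM in 3 libraries, DESeq2 1.42.0, voom with sample weights, leaving out each library, and the study's thresholds. The members and lists were chosen with earlier results of these data known. Every member called was named, with CDH1, CDH2 and the 6 most abundant members not called. So were up to 4 called genes per list with the smallest p. Added after their values were seen were CDH3, PCDH1, PCDH15, PCDH17, PCDHGA10, PCDHGB7, VIM, CD68 and DCN. The members called without library D, the repressors not called and the fold changes of KRT8, KRT18, EPCAM and IGF2BP1 were added likewise.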

Additional observations from a re-analysis of the deposited data

How the results depend on the processing

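The count of lower members, 10, became 19 with voom sample weights and 5 with the study's expression-dependent fold threshold. It ranged from 5 to 19 when 1 library was left out. Over all 16330 genes tested, 1432 were lower in the main fit, 3737 with voom and 379 with the fold threshold. With 1 library left out, lower genes in all ranged from 527 without F to 3293 without D. The count of higher members, 0, became 1 with voom sample weights, and was 0 to 1 without 1 library. Higher genes in all numbered 958 in the main fit, 3399 with voom and 2958 without D. Lower clustered members, 2, became 1 with a minimum of 1 CPM, 9 with voom and 1 with the fold threshold, and ranged from 1 to 9 without 1 library. Lower non-clustered members, 5, became 2 with the fold threshold and ranged from 2 to 6 without 1 library. The classical median log2 fold change, −0.21, became 0.030 with no filter, −0.85 with a minimum of 1 CPM and 0.018 with DESeq2, which average over other members. PCDHB6, at 0.05, became −0.068 with library size alone and −0.10 with voom, and ranged from −0.10 without library D to 0.17 without library E. Where no construction of the alternative shows it, the cause was not tested. Scaling by library size alone moved the median of all genes to −0.12. No paired analysis was possible because the columns carry no replicate numbers. Depth limits the 37 members with at most 65 counts in sum, whose levels could not be compared.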
